A study of Mus musculus with 8 samples.

Results

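A set of 9 genes of mitochondrial fatty acid beta-oxidation were read in the livers of 8 mice, 1 Affymetrix U74Av2 array per mouse: Cpt1a, Cpt2, Slc25a20, Acadm, Acadl, Acadvl, Decr1, Hadhb and Acaa2. Each gene was represented by its brightest probe set among those annotated with a single symbol, and all 9 genes had one, out of 8251 genes with such a probe set on the array. For 8 of the 9 the probe set was bright enough to test (a mean intensity of at least 165.2, the median of the table), as it was for 4869 genes in all. The mice were female Ames dwarf mice (df/df), a strain that lacks the pituitary cells making growth hormone, prolactin and thyroid stimulating hormone. They had received 30% less food than freely fed df/df females, and their livers were taken when they were 24 to 26 months old. All 8 belong to 1 group, with neither freely fed dwarfs nor mice without the mutation beside them here, so the values show how the livers differ from one another and carry no effect of diet or genotype.

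Beta-oxidation shortens fatty acids inside mitochondria and yields acetyl-CoA, which the fasted liver turns into ketone bodies. Long-chain fatty acids enter as carnitine esters: CPT1A on the outer membrane makes the ester, the carrier SLC25A20 moves it inward, and CPT2 on the inner membrane restores the acyl-CoA. Each round of shortening then takes an acyl-CoA dehydrogenase chosen by chain length (ACADVL, ACADL and ACADM for very long, long and medium chains), hydration and a further oxidation, and a thiolase. HADHB is the thiolase subunit of the mitochondrial trifunctional protein, ACAA2 is another mitochondrial thiolase, and DECR1 is the reductase needed for polyunsaturated chains. In liver many of these genes are known targets of the fatty acid receptor PPAR alpha. None of the 9 genes encodes an enzyme of ketone body synthesis, which was not analysed here.

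Mice 6 and 8 had the lowest values of all 8 measured genes, and mouse 5 or mouse 4 had the highest. Mice 6 and 8 were the 2 lowest of the 8 livers in 8 of 8 genes, which was true of 13.0% of all tested genes; this way of counting was chosen after the values were seen. Mouse 6 was the lowest in 7 of the 8 (18.4% of all tested genes), mouse 5 the highest in 5 (20.8%) and mouse 4 the highest in the other 3 (11.4%). As a log2 difference from each gene's own mean, the median over the 8 genes was -0.34 for mouse 6 and -0.24 for mouse 8. Mice 5, 4, 7 and 2 had medians of 0.24, 0.18, 0.12 and 0.11, and mice 3 and 1 lay close to 0, with -0.01 and -0.04. The same median over all tested genes stayed between -0.03 and 0.02. In mouse 6 the 8 differences ran from -0.53 to -0.23 and in mouse 8 from -0.36 to -0.18. After quantile normalization the count was 7 of 8, because mouse 2 was then lowest for Cpt1a. In bulk liver RNA, fewer cells of a type and less RNA per cell cannot be told apart.

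**Figure D1:**
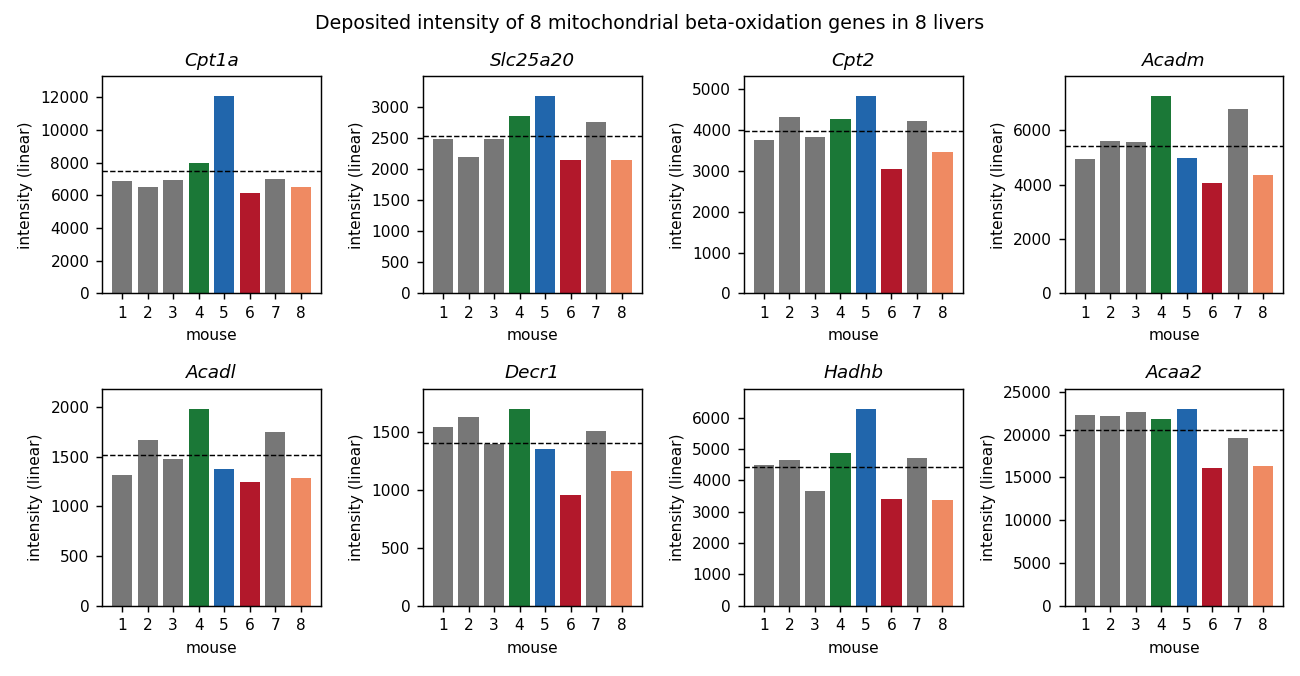
Deposited intensity (vertical axis, linear, from 0) of 8 beta-oxidation genes in each of 8 mice (horizontal axis); the dashed line is the mean of the 8 mice, and colours mark mouse 4 (green), mouse 5 (blue), mouse 6 (red) and mouse 8 (orange). The red and orange bars are the 2 lowest in every panel, the blue bar is highest in 5 panels and the green bar in 3.

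Among the genes of the carnitine shuttle, Cpt1a, which encodes the enzyme taken as the control point of entry, read 6882, 6543, 6944, 7973, 12078, 6154, 6991 and 6492 in mice 1 to 8. Mouse 5 stood apart, and the other 7 livers lay within a narrow band. The SD of Cpt1a on the log2 scale was 0.31 over the 8 mice and 0.12 without mouse 5. Slc25a20, the carnitine-acylcarnitine carrier, read 2484, 2203, 2494, 2858, 3177, 2145, 2765 and 2150. It was highest in mouse 5 too, but by less, over a range of 1.48-fold, with mice 6, 8 and 2 close together at the bottom. Cpt2 read 3760, 4314, 3816, 4277, 4823, 3037, 4214 and 3470, again with mouse 5 at the top and mouse 6 at the bottom, a range of 1.59-fold. A second probe set named Cpt2 read below 37.2, the floor set at the 25th percentile of the table, on every array (mean 2.90 ± 1.18, SD, n = 8).

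The array of mouse 5 differed from the others in a measure of RNA quality. The ratio of the 3' to the 5' control probe set of Gapdh reached 2.67 in mouse 5, where the 7 other arrays lay between 0.79 and 1.07. The same ratio for beta-actin did not set mouse 5 apart (1.60, with the 7 other arrays between 1.45 and 2.0). The part of this in the high Cpt1a, Slc25a20, Cpt2 and Hadhb values of mouse 5 was not tested. The hybridization spike-in controls also separated the arrays, with a mean between 3541 and 4197 in mice 1 to 4 and between 2279 and 2745 in mice 5 to 8. Mice 6 and 8 share the second set with mice 5 and 7, whose values for these genes were higher. The part of the array set in the low values of mice 6 and 8 was not tested.

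The dehydrogenases Acadm and Acadl had another order of livers. Acadm, the medium-chain dehydrogenase, read 4941, 5593, 5557, 7258, 4968, 4057, 6770 and 4364 in mice 1 to 8. Acadl, the long-chain dehydrogenase, read 1314, 1665, 1480, 1984, 1375, 1241, 1751 and 1284. Both genes were highest in mouse 4, next highest in mouse 7 and lowest in mouse 6, and mouse 5, at the top for the carnitine shuttle, lay below the mean of both. The range was 1.79-fold for Acadm and 1.60-fold for Acadl. Acadvl, the very-long-chain dehydrogenase, could not be followed, since its 2 probe sets averaged 16.7 ± 16.4 and 13.4 ± 8.52 (SD, n = 8), and the brighter of them passed the floor on 1 array. Other dehydrogenases of the list did not share that order: Acads, for short chains, ran from 1300 in mice 5 and 6 to 2087 in mouse 2. Gcdh, the glutaryl-CoA dehydrogenase of lysine breakdown, was lowest in mice 6 and 8 (4812 and 5150) and highest in mouse 5 (7920).

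Decr1, the 2,4-dienoyl-CoA reductase, read 1542, 1623, 1392, 1699, 1350, 954, 1502 and 1161 in mice 1 to 8. Mouse 6 lay clearly lowest, mouse 8 next, and the other 6 livers between 1350 and 1699. Hadhb read 4479, 4637, 3660, 4882, 6291, 3414, 4702 and 3376. It resembled the carnitine shuttle genes, with mouse 5 far above the rest, and it was the only one of the 8 genes lowest in mouse 8, by a narrow margin over mouse 6. Acaa2 read 22251, 22150, 22661, 21773, 23040, 16124, 19651 and 16375. Mice 6 and 8 formed a low pair there and mice 1 to 5 read almost alike, and mouse 7 lay between them, over a range of 1.43-fold. After quantile normalization the log2 SD of Acaa2 fell from 0.21 to 0.09, with mice 6 and 8 still lowest.

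No spread among these genes passed a test against that of probe sets of like brightness. The variance over the 8 mice was compared with the trend of variance on brightness across all 6265 tested probe sets (a one-sided F test with limma's squeezeVar, Benjamini-Hochberg adjustment over all of them). Of the 8 genes 0 had an adjusted p under 0.05, as did 0 of all tested probe sets (0.00%), and 0 had an unadjusted p under 0.05, against 400 probe sets (6.38%). Even Iigp1, an interferon-induced gene with an SD of 1.75 where 0.21 was expected, had an adjusted p of 0.308 in this F test. The lack of calls thus says little about genes with a smaller spread. The SD was 0.31 for Cpt1a and for Hadhb, where 0.21 was expected at their brightness, and the F ratios were 2.27 and 2.20 (unadjusted p = 0.231 and 0.240, adjusted p = 0.989 for both). Acadm (SD 0.29), Decr1 (0.28) and Acadl (0.24) followed, and Cpt2, Acaa2 and Slc25a20 had an SD of 0.21. The median tested gene had an SD of 0.23, and the 90th percentile was 0.50, so the genes ranked between the 40.8th (Cpt2) and the 72.2nd percentile (Cpt1a).

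Among the 8 genes, 2 pairs each shared one order of the 8 livers, as noticed after the values were seen. Acadm and Acadl ranked the 8 mice in the same order (rho = 1.0, p = 4.96e-05, exact permutation test; r = 0.96, p = 2.48e-05, the p of 1 pairing among all, which is the smallest that the test can give). Cpt1a and Slc25a20 also ranked the 8 mice in one order, which differed from that of Acadm and Acadl (rho = 1.0, p = 4.96e-05, exact permutation test; r = 0.85, p = 2.48e-05). Adjusted over the 4868 other tested genes the p-values of r were 0.121 and 0.0805, above 0.05. Leaving out the 2 mice most distant from the first gene's median gave an r of 0.93 for Acadm and Acadl (mice 4 and 6 left out) and 0.89 for Cpt1a and Slc25a20 (mice 5 and 4 left out). All p-values here rest on 1 sample from each of 8 mice. Those of r and rho give the share of all pairings of the mice with a correlation at least as strong.

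Where Cpt2 and Hadhb lay relative to these pairs rested on mouse 5. Over all 8 mice Cpt2 had r of 0.79 with Acaa2, 0.75 with Decr1 and 0.73 with Cpt1a. Without mouse 5 it had 0.95 with Decr1, 0.89 with Acadm, 0.87 with Acadl and 0.69 with Cpt1a, and Hadhb had 0.89 with Decr1, 0.82 with Acadm and 0.66 with Cpt1a. The correlation between Cpt2 and Hadhb was r = 0.91 (p = 0.00218, adjusted over all other tested genes 0.0582; rho = 0.88, p = 0.00724, exact permutation tests) and 0.86 without mice 6 and 5, and Cpt1a and Hadhb had r = 0.83 (p = 0.00402, adjusted 0.149; rho = 0.88, p = 0.00724, exact permutation tests) and 0.57 without mice 5 and 4. Between the pairs the relation over all 8 mice was loose: Cpt1a and Acadm had r = 0.16 (p = 0.698, adjusted 0.855; rho = 0.67, p = 0.0831, exact permutation tests), which became 0.79 without mice 5 and 4 and 0.86 without mouse 5 alone, and Cpt1a and Acadl had r = 0.09 (p = 0.892, adjusted 0.954; rho = 0.67, p = 0.0831, exact permutation tests), which became 0.55 and 0.79. The low r of Cpt1a with the dehydrogenases thus rested on mouse 5. The part of the high Gapdh ratio of mouse 5 in this was not tested. Decr1 correlated with Acadm at r = 0.82 (p = 0.0108, adjusted 0.280; rho = 0.81, p = 0.0218, exact permutation tests) and at 0.63 without mice 4 and 6.

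Of the 28 pairs among the 8 genes, 13 had r of at least 0.7, 12 had an unadjusted p of r under 0.05, and 0 had a p under 0.05 after adjustment over all tested genes. The share of all tested genes under either p threshold was not computed. The count of 13 was 18 without mouse 5 and 9 without mouse 6, and it fell to 5 when both mice 6 and 8 were left out, where the median r over the 28 pairs went from 0.63 to 0.06. The 5 pairs were Acadm with Acadl (0.95), Cpt2 with Hadhb (0.88), Cpt1a with Slc25a20 (0.84), Cpt1a with Hadhb (0.83) and Cpt1a with Cpt2 (0.77). Acaa2 and Decr1 went from 0.80 in all 8 mice (p = 0.0236, adjusted 0.214; rho = 0.31, p = 0.462, exact permutation tests) to -0.30 without mice 6 and 8, so their relation rested on those mice. As a background, 12.7% of the 4868 other tested genes reached r of 0.7 with Cpt2, where 5 of the 7 other genes did; 13.2% reached it with Hadhb (4 of 7), 10.9% with Slc25a20 (3 of 7), 10.2% with Acaa2 (3 of 7), 9.51% with Cpt1a (3 of 7), 8.53% with Decr1 (4 of 7), 6.82% with Acadm (2 of 7) and 6.18% with Acadl (2 of 7). Without mouse 5 Acadm, Acadl and Decr1 each reached it with 6 of the other 7 genes, and without mouse 6 the count for Acaa2 was 0, for Decr1 2 and for Cpt2 3. The shares of all tested genes were computed over all 8 mice only. The counts with mice left out thus have no background beside them.

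**Figure D2:**
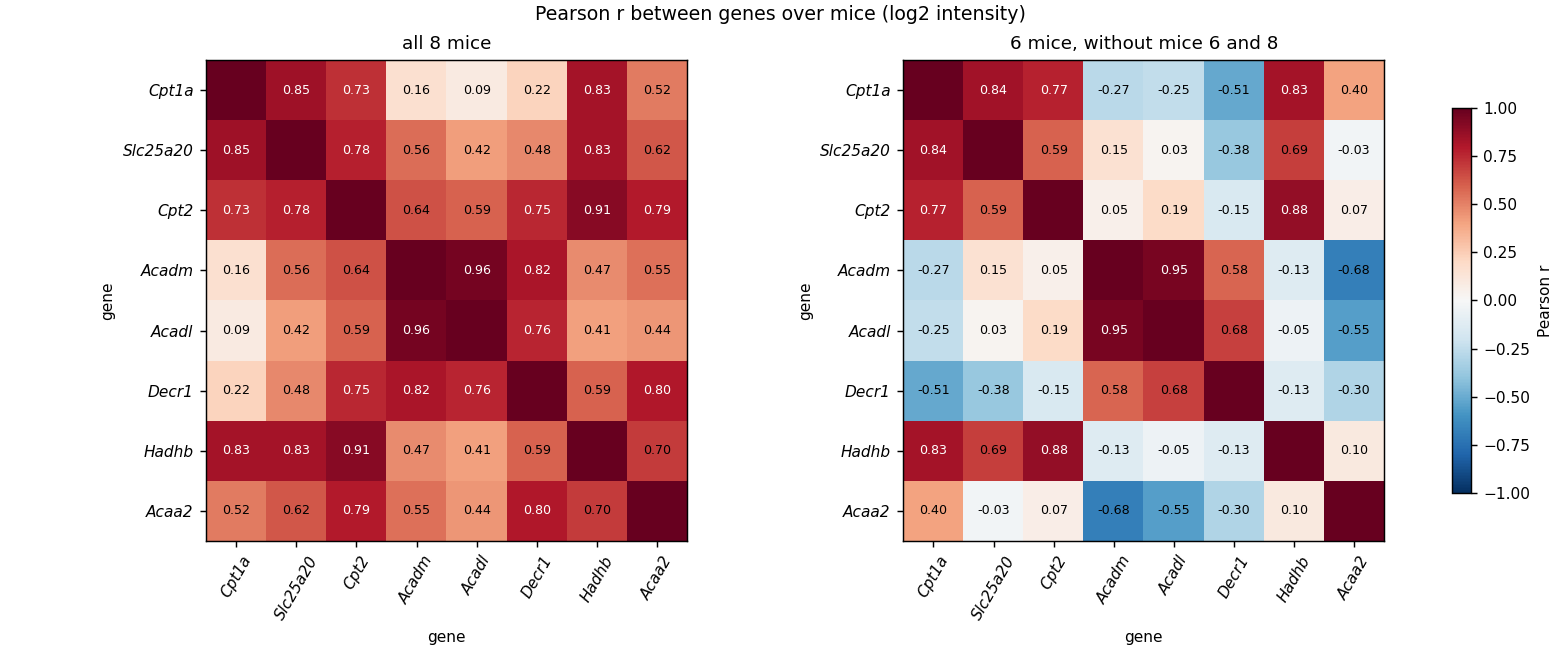
Pearson r between the log2 intensities of each pair of the 8 genes, over all 8 mice (left) and over 6 mice without mice 6 and 8 (right); both axes list the genes and the colour scale runs from -1 to 1. In the right panel, which keeps mouse 5, a block of Cpt1a, Slc25a20, Cpt2 and Hadhb and a block of Acadm, Acadl and Decr1 keep r of at least 0.58, while values between these blocks run from -0.51 to 0.19.

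The promoter sequences of the genes that shared an order of livers were set side by side to show which short motifs the pairs did and did not share. RefSeq promoter windows (GRCm38.p6) were found for 7 of the 9 genes, and the 250 bases before the transcript start are printed 5′ to 3′ for Acadm and Acadl and for Cpt1a and Slc25a20. Capitals mark AGGTCA on either strand (TGACCT on the reverse), the hexamer that nuclear receptors such as PPAR alpha bind in pairs, and GGGCGG on either strand (CCGCCC on the reverse), the GC box.
Acadm (chr3:153944644-153944893, - strand): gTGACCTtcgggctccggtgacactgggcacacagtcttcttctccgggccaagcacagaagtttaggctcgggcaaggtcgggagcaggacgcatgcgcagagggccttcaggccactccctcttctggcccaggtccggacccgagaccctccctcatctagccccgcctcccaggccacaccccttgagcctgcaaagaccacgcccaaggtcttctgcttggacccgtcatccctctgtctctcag
Acadl (chr1:66863310-66863559, - strand): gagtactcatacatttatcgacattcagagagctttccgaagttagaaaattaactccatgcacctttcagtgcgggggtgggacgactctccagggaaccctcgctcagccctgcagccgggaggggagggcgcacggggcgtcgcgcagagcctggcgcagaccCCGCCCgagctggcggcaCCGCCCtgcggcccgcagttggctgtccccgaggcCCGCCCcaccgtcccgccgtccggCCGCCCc
Cpt1a (chr19:3323051-3323300, + strand): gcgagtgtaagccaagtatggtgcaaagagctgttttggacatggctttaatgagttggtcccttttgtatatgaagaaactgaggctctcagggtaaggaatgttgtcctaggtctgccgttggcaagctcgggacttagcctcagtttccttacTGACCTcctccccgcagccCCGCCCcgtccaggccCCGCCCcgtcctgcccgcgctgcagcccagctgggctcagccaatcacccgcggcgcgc
Slc25a20 (chr9:108661886-108662135, + strand): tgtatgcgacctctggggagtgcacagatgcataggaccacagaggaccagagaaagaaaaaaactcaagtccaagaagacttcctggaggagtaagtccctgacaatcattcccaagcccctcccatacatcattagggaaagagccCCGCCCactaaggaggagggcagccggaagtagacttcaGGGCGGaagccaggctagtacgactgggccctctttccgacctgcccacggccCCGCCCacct
Acadm held AGGTCA on the reverse strand at -249 to -244 from the start and no GC box. Acadl held 4 GC boxes and no AGGTCA. Cpt1a held AGGTCA on the reverse strand at -94 to -89 and 2 GC boxes, and Slc25a20 held 3 GC boxes. Over the 7 windows AGGTCA was found in 3 (Acadm, Acadvl and Cpt1a), and it was found in 14.0% of all 32851 windows of this length. GGGCGG was found in 5 of the 7 (Acadl, Cpt1a, Cpt2, Hadhb and Slc25a20) against 32.7% of all windows. The direct repeat AGGTCANAGGTCA, searched on both strands and containing AGGTCA 2 times, was found in 0 of the 7 and in 0.0335% of all windows, and CCAAT on either strand in 1 (Cpt1a) against 33.8%. These are matches of letters in a short window, so no match says only that the letters are not in it.

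The livers low in these genes were also those highest in Iigp1, an interferon-induced immunity-related GTPase, which read 3256, 10908, 11521, 1276, 1462, 15220, 839 and 14442 in mice 1 to 8. The log2 intensity of every tested probe set was fitted on that of Iigp1 with limma. All 8 genes had a negative slope, as did 53.5% of the 6263 probe sets, and their median slope was -0.10 log2 units per log2 unit of Iigp1 against -0.01 over all. Since Iigp1 was highest in mice 6 and 8, the 2 lowest livers in all 8 genes, these signs are not separate from that count. Of the 8 genes 0 passed at an adjusted p under 0.05, where 5 probe sets (0.0798%) passed with a negative slope and 61 (0.974%) with a positive one. At an unadjusted p under 0.05, 3 of the 8 passed (Acadm, Hadhb and Slc25a20), where 7.92% of all probe sets did with a negative slope. Those counts over all probe sets depended on single livers: the 66 calls became 41, 260, 21, 31, 31, 24 and 21 without mouse 1, 2, 4, 5, 6, 7 and 8.

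Hadhb, Slc25a20 and Acadm are the 3 genes with an unadjusted p under 0.05. Hadhb had a slope of -0.14 ± 0.04 (SE, limma adjusted p = 0.164), with r = -0.78 (p = 0.0290, adjusted over all other tested genes 0.283) and rho = -0.86 (p = 0.0107, exact permutation tests), and r = -0.89 without mice 7 and 4, the 2 farthest from the median of Iigp1. Slc25a20 had a slope of -0.11 ± 0.03 (SE, limma adjusted p = 0.141), with r = -0.88 (p = 0.00801, adjusted 0.232) and rho = -0.83 (p = 0.0154, exact permutation tests), and r = -0.90 without mice 7 and 4. Acadm had a slope of -0.11 ± 0.05 (SE, limma adjusted p = 0.258), with r = -0.69 (p = 0.0724, adjusted 0.369) and rho = -0.79 (p = 0.0279, exact permutation tests). Its r without mice 7 and 4 was -0.22, so this relation rested on those 2 livers, and that of Acadl (-0.56, p = 0.143, adjusted 0.470; rho = -0.79, p = 0.0279, exact permutation tests) went to 0.05. Cpt1a had a slope of -0.10 ± 0.05 (SE, limma adjusted p = 0.353), with r = -0.59 (p = 0.0637, adjusted 0.358) and rho = -0.83 (p = 0.0154, exact permutation tests). Its r without mice 7 and 4 was -0.86. Cpt2 and Decr1 had rho of -0.67 and -0.64 (p = 0.0831 and 0.0962, exact permutation tests). Acaa2 had the smallest slope, -0.05 ± 0.04 (SE, limma adjusted p = 0.584), with rho = -0.33 (p = 0.428, exact permutation test). Relations were computed for 8 genes with 2 regulators or markers, 16 in all.

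With the array set of the spike-in controls as a block, a choice made after the data were seen, 0 of the 8 genes passed and 5 had an unadjusted p under 0.05 (8.80% of all probe sets had one with a negative slope). All 8 slopes were negative in that fit, as were 53.9% of all, while the calls over all probe sets rose to 149 positive (2.38%) and 31 negative (0.495%). Within mice 5 to 8 alone all 8 slopes were negative, between -0.17 for Hadhb and -0.09 for Acadl. In that set Iigp1 was high in mice 6 and 8 (15220 and 14442) and low in mice 5 and 7 (1462 and 839). Mice 6 and 8 were already the 2 lowest livers in all 8 genes, so these signs follow from that and add nothing to it. Within mice 1 to 4 alone 7 of the 8 were negative, the lowest -0.09 for Acadm, and Acaa2 had 0.01. The share of all probe sets with a negative slope within either set was not computed.

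Macrophage markers were highest, as a sum, in the livers where these genes were lowest. The summed intensity of the 11 macrophage markers, all bright enough to test, was 33541 in mouse 6 and 21245 in mouse 8 against 5762 to 11824 in the other 6 mice. A positive slope on Iigp1 was found for 11 of 11, where 53.5% of all probe sets had a negative one. In the limma fit 1 of the 11 passed (Mpeg1, adjusted p = 0.00224; 0.974% of all probe sets), 10 did not (Clec4f had a slope of 0.07, adjusted p = 0.727), and 10 had an unadjusted p under 0.05 (8.17%), and with the array set as a block 7 passed (2.38%; unadjusted, 8.88% of all probe sets). The sum of the 7 hepatocyte markers was 92425, 94953 and 97521 in mice 6, 7 and 8 and 109824 to 130092 in mice 1 to 5. Mice 6 and 8 were the 2 lowest in 4 of the 7 (Alb, Ttr, Cps1 and Tdo2), as in 13.0% of all tested genes. The others differed: Apoa1 was lowest in mice 7 and 8, and Apob was lowest in mice 5 and 1 and second highest in mouse 8 (6506). Hnf4a was highest in mouse 8 (1308) and lowest in mouse 5 (266). All 7 hepatocyte markers were bright enough to test, while 3 of 3 cholangiocyte markers averaged below the floor. Mouse 7 had a hepatocyte sum near that of mice 6 and 8 but was second highest for Hnf4a (1102). It read above the mean in 6 of the 8 beta-oxidation genes. These sums do not measure the share of hepatocytes, and the part of a changed mix of cells in the low values of mice 6 and 8 was not tested.

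**Figure D3:**
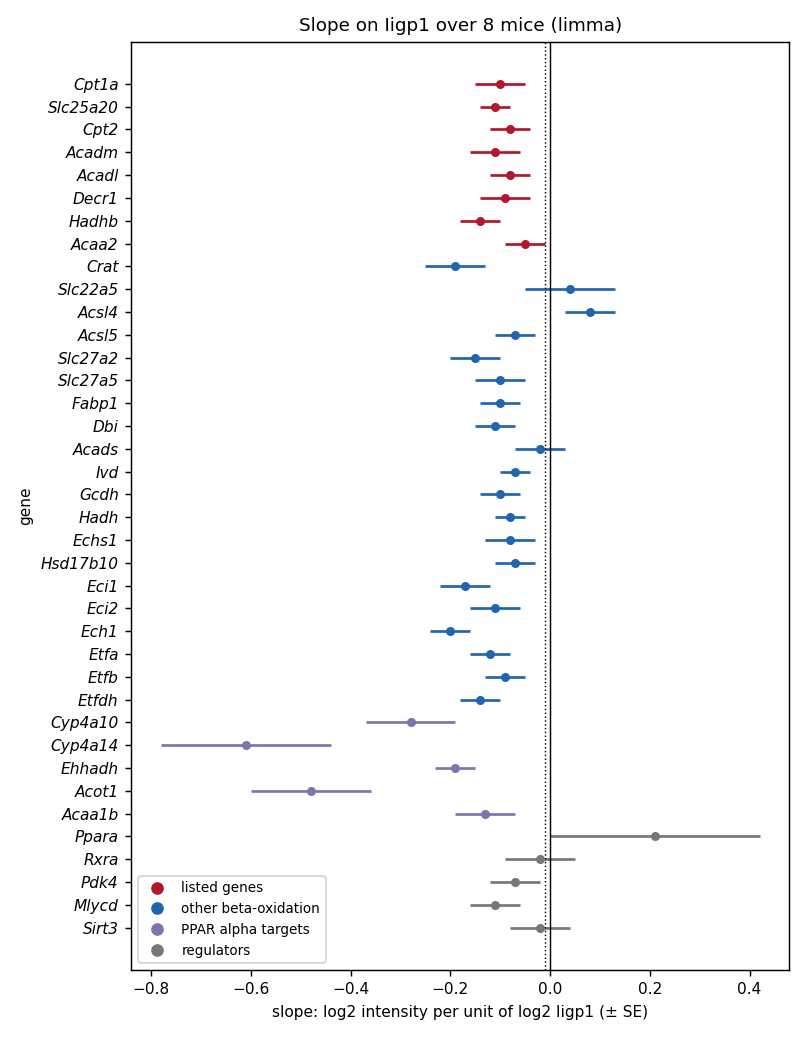
Slope of log2 intensity on log2 Iigp1 over 8 mice (horizontal axis, points with bars of 1 SE from limma) for the 8 listed genes (red), 20 other genes of beta-oxidation and fatty acid entry (blue), 5 PPAR alpha targets outside mitochondrial oxidation (purple) and 5 regulators (grey); the dotted line is the median of all tested probe sets, -0.01. All red points lie between -0.14 and -0.05.

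Most other genes of the pathway were also low in mice 6 and 8. Of 20 other tested genes of fatty acid entry and mitochondrial oxidation, mice 6 and 8 were the 2 lowest livers in 16 (13.0% of all tested genes), and 18 had a negative slope on Iigp1 (53.5% of all probe sets), of which 0 passed (0.0798%) and 10 had an unadjusted p under 0.05 (7.92%). Their median slope was -0.10, and these signs too are not separate from the low values of mice 6 and 8. Within the carnitine list, the carnitine acetyltransferase gene Crat ran from 251 in mouse 6 to 584 in mouse 1, with an SD of 0.42, whereas the carnitine importer gene Slc22a5 followed another course, from 153 in mouse 5 to 385 in mouse 7. Among genes of activation and entry, the fatty acid binding protein gene Fabp1 had the highest mean, 17574, and ran from 12776 in mouse 6 to 20723 in mouse 4, and the transporter and acyl-CoA synthetase gene Slc27a2 had the largest SD, 0.36, from 4326 in mouse 6 to 8899 in mouse 4. Acsl4, a synthetase that favours arachidonic acid, ran the other way, from 791 in mouse 5 to 1448 in mouse 8 (slope 0.08 ± 0.05, SE, limma adjusted p = 0.519).

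Echs1, the short-chain enoyl-CoA hydratase, peaked in mouse 5 at 5971, with the 7 other livers between 3014 and 3737, so mouse 5 stood apart as it did for Cpt1a, and its 2 lowest livers were mice 8 and 7. Hadh, the hydroxyacyl-CoA dehydrogenase for shorter chains, read from 4641 in mouse 6 to 6387 in mouse 5. All 4 auxiliary genes, Decr1 among them, had mice 6 and 8 lowest (13.0% of all tested genes). The isomerase gene Eci1 had 1724 and 1713 there and 3710 in mouse 5, and the dienoyl-CoA isomerase gene Ech1 had 2487, 2542 and 5284. Ech1 had a slope on Iigp1 of -0.20 ± 0.04 (SE, limma adjusted p = 0.0555), and the adjusted p was 0.0294 with the array set as a block. The electron transfer flavoprotein subunits and their dehydrogenase, which take the electrons of the first oxidation step, were also lowest in mice 6 and 8, with Etfa between 3356 and 5522, Etfb between 3469 and 5872 and Etfdh between 1681 and 3251.

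**Figure D4:**
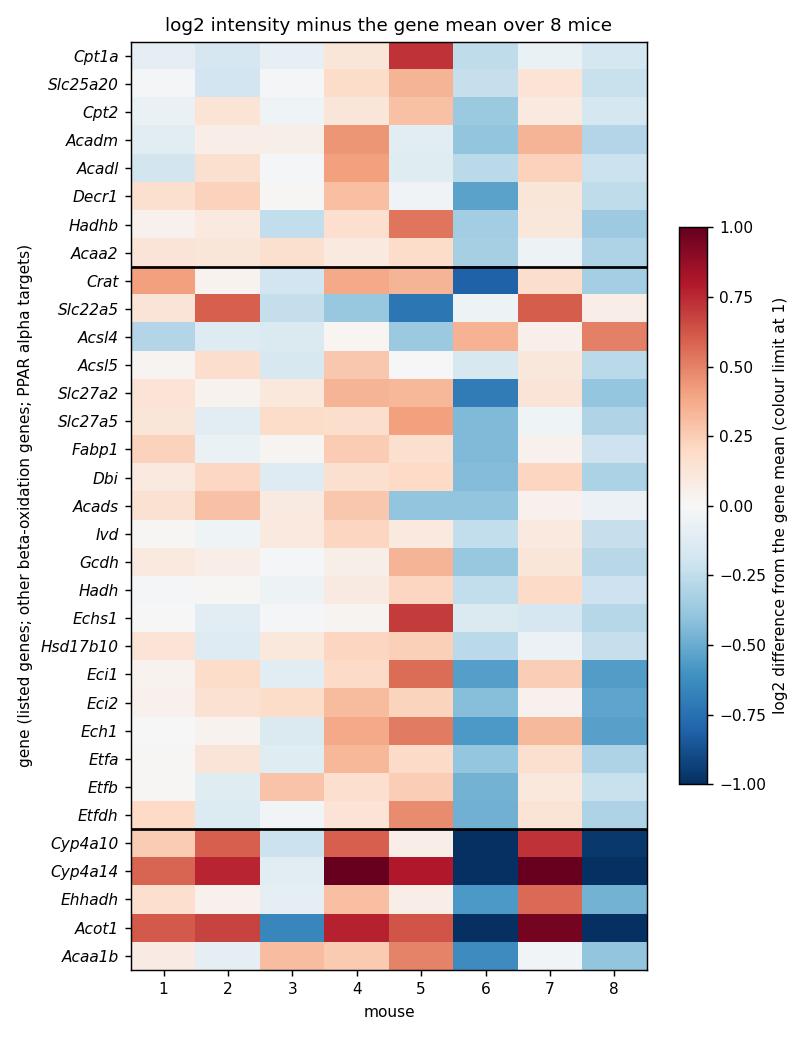
Difference of log2 intensity from the gene mean over 8 mice (colour, cut at 1 and -1) for the 8 listed genes (top block), 20 other genes of fatty acid entry and mitochondrial oxidation (middle) and 5 PPAR alpha targets outside it (bottom), with mice 1 to 8 across. The columns of mice 6 and 8 are blue in nearly every row, with Acsl4 reversed and Slc22a5 near its mean.

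Ppara, the gene of the receptor itself, ranked the livers differently. It read 683, 2245, 3038, 1207, 427, 344, 989 and 1984 in mice 1 to 8, lowest in mice 6 and 5, of which the first was lowest and the second highest for Cpt1a, Cpt2 and Slc25a20. In the limma fit on log2 Ppara 0 of the 8 genes passed at an adjusted p under 0.05, where 9 probe sets (0.144%) passed with a positive slope and 0 (0.00%) with a negative one, and 0 of the 8 had an unadjusted p under 0.05, against 3.66% and 2.03% of all. The 8 slopes ran from -0.10 ± 0.09 for Cpt1a to 0.10 ± 0.08 for Decr1 (SE, limma adjusted p = 0.980 and 0.971), and 3 were negative, as were 48.9% of all. With the array set as a block 0 of the 8 passed, where 1 probe set did (0.0160% positive, 0.00% negative). In that fit 0 of the 8 had an unadjusted p under 0.05 (2.49% of all did with a positive slope and 1.13% with a negative one), and 4 were negative, against 49.8% of all. The 9 calls over all probe sets became 3, 1, 2, 2, 4, 17, 2 and 1 without mice 1 to 8 in turn.

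Of the other regulators, Mlycd, whose malonyl-CoA decarboxylase removes the inhibitor of CPT1, had 1562 and 1456 in mice 6 and 8 and 2618 in mouse 5, its 2 lowest livers and its highest, as for Cpt1a, Cpt2 and Slc25a20. Pdk4, a pyruvate dehydrogenase kinase that spares glucose, read from 180 in mouse 2 to 267 in mouse 7, Rxra, the partner of PPAR alpha, from 735 in mouse 6 to 1368 in mouse 2, and the mitochondrial deacetylase gene Sirt3 from 786 in mouse 4 to 1528 in mouse 1. Ppargc1a, a coactivator gene, averaged 44.0 and was too dim to test. Of the 5 tested regulators 0 passed on Iigp1 in either direction. The 5 tested PPAR alpha targets outside mitochondrial oxidation all had mice 6 and 8 lowest, as did 13.0% of all tested genes. Cyp4a14, an omega-hydroxylase and the most variable of them (SD 1.39), had 761 and 990 there and 3572 to 8973 elsewhere. Acaa1b, a peroxisomal thiolase with the highest mean of them (15181), had 9526 and 11211 against 13864 to 20861. Ehhadh, the peroxisomal bifunctional enzyme, had 974 and 1043 against 1357 to 2146. Of these 5, 0 passed on Iigp1 (0.0798% of all probe sets with a negative slope), and 3 passed with the array set as a block, against 0.495% of all (Cyp4a14, Ehhadh and Acot1, limma adjusted p = 0.0260, 0.0294 and 0.0298).

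Of the 4861 other tested genes, the 6 whose course over the 8 mice was most like that of the 8 genes, by mean r, were Hsd17b4, Rmnd5a, Ech1, Cmbl, Mrpl24 and Mccc1. They had a mean r of 0.80, 0.80, 0.80, 0.79, 0.79 and 0.79 over the 8 genes. The median over all 4869 tested genes, the 8 included, was 0.03. In mice 6, 8 and 5, Hsd17b4, the peroxisomal D-bifunctional enzyme, had 2829, 3481 and 6486. Rmnd5a, a ubiquitin ligase subunit gene, had 2016, 2220 and 3352 in those mice, and Mccc1, a carboxylase subunit of leucine breakdown, 466, 518 and 733. Mrpl24, a mitochondrial ribosomal protein gene, varied far less, from 1550 in mouse 8 to 2003 in mouse 4, and Cmbl, a hydrolase gene, ran from 3006 in mouse 6 to 6552 in mouse 5. These likenesses over 8 arrays are a description and share the same libraries.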

How the data were processed

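Liver RNA of 8 mice was measured on Affymetrix U74Av2 arrays, per the labels. The authors deposited linear intensities, 1 per probe set for each array, summarized with software not given in the sources used here. Trimmed means of the arrays differed by at most 0.0661%, so the deposited scaling was kept. Values were raised to a floor of 37.2 and converted to log2; control probe sets (66) and probe sets with a mean under 165.2 were left out, which left 6265. Only the 10833 probe sets with 1 symbol in the annotation were named (396 had several and 1193 had none), and symbols can be old.

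Spread was tested with limma's squeezeVar (robust, with a trend; prior degrees of freedom 3.80), and slopes on Iigp1 and Ppara with lmFit and eBayes (R 4.3.3, limma 3.58.1), each with Benjamini-Hochberg adjustment over all tested probe sets at 0.05. Correlations used exact two-sided permutation tests over all pairings of the 8 mice. The fits were tested on simulated data. Alternatives were other floors, filters and scalings, no variance trend, the mean of a gene's probe sets, each mouse left out, and, added after the data were seen, the array set as a block. The members, the lists and the use of Iigp1 were chosen with earlier results of these data known. Named genes are all members, the other gene with the highest mean and that with the largest SD in each pathway list, the regulators, Iigp1, and the 6 genes with the highest mean r over the members; Acsl4, Eci1, Etfa, Ehhadh, Acot1 and the markers were named after their values were seen. The lists of neutrophil, lymphocyte, endothelial, stellate, adipocyte, erythrocyte and muscle markers are given in the closing section. The 8 arrays limit the precision of every value.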

Additional observations from a re-analysis of the deposited data

Results flagged for a closer look

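Of 44 genes checked, 2 had 1 liver far from the rest, by a gap to the nearest other liver that, as a share of the gene's whole log2 range, was above Dixon's critical value. Chance alone does this in about 1 of 20 genes. Cpt1a stood at 12078 in mouse 5, the next liver at 7973, and that gap was 0.616 of the range. Echs1 stood at 5971 in mouse 5, the next at 3737, and the gap was 0.685 of the range. Both belong to mouse 5, whose Gapdh 3' to 5' ratio was 2.67, and the part of that in either value was not tested. The cell type markers were outside this check. Tested markers with such a gap were Hnf4a (0.610, low in mouse 5), S100a8 (0.685), Alas2 (0.560), Col3a1 (0.553) and Tdo2 (0.527).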

How the results depend on the processing

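The F test of spread called 0 probe sets under every alternative run, with each mouse left out in turn too. All 8 slopes on Iigp1 stayed negative with an adjusted p above 0.05 in all 136 alternative fits (slopes from -0.17 to -0.03, adjusted p from 0.0676 to 0.877). The count of probe sets called on Iigp1 (66) was 33 with no filter on brightness, 42 with arrays scaled to a common median, 109 after quantile normalization, 180 with the array set as a block and 21 to 260 without single mice. Scaling to a common median moved arrays by -0.10 to 0.18 on the log2 scale. The count called on Ppara (9) was 1 with the block and 1 to 17 without single mice. The pairs with r of at least 0.7 (13) ranged from 9 to 18 without single mice and were 5 without both mice 6 and 8; they were 19 with arrays scaled to a common median. Of the slopes on Ppara, 7 of 136 changed sign: Acaa2 with the block (-0.03), Acaa2, Cpt2 and Decr1 without mouse 6, and Cpt1a, Hadhb and Slc25a20 without mouse 5. Without single mice these slopes ran from -0.05 to 0.09 (Acaa2), -0.08 to 0.09 (Cpt2), -0.02 to 0.14 (Decr1), -0.23 to 0.02 (Cpt1a), -0.23 to 0.01 (Hadhb) and -0.15 to 0.01 (Slc25a20). Mice 6 and 8 stayed the 2 lowest in 8 of 8 genes except after quantile normalization (7). The SD moved by over 1.5 times in 3 of 112 alternatives: Cpt1a without mouse 5 (0.12), Acaa2 after quantile normalization (0.09), and Cpt2 with the mean of its probe sets (0.10), 1 of which lies at the floor. The cause of the other changes was not tested. No paired analysis was possible because there is 1 group.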

Other observations

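Markers of other cell types were read as sums of intensity per mouse. The 4 neutrophil markers summed to 915 in mouse 6 and 250 to 326 in the others, and the 5 measured T and NK cell markers to 2404 in mouse 6 and 2047 in mouse 8 against 164 to 972 in the others. Most of the T and NK cell sum in mice 6 and 8 was Ccl5 (2069 and 1685). By contrast, Cd4 was highest in mouse 3 (345), Cd3e in mouse 1 (113), and Cd3g and Cd8a in mouse 2 (58.3 and 30.6). The 3 B and plasma cell markers ranged from 727 in mouse 8 to 1339 in mouse 4, the 4 endothelial markers from 566 in mouse 8 to 1136 in mouse 4, and the 4 stellate and matrix markers from 2173 in mouse 4 to 3166 in mouse 6. The 2 erythrocyte markers ranged from 5649 in mouse 8 to 12740 in mouse 5, the 2 adipocyte markers from 729 to 1434, and the 3 skeletal muscle markers, all too dim to test, from 274 to 448. The 3 cholangiocyte markers ranged from 34.4 to 97.1.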
